A study of Mus musculus with 4 samples.

Results

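Adrenomedullin and apelin are secreted peptides that act on endothelial cells through receptors coupled to G proteins, and the 7 genes described here encode both ligands and their receptors: Adm, Calcrl, Ramp1, Ramp2, Ramp3, Apln and Aplnr. They were taken by symbol from 23337 gene symbols in the deposited counts, and all 7 were found. The counts come from 4 libraries of lymphatic endothelial cells isolated on embryonic day 14.5 from mice. One genotype was wild type, and the other carried a deletion on both alleles (mutant). The study concerns a GATA2-bound enhancer by its title, and the labels used here give neither the deleted interval nor the strain. The cells were taken from the dorsal and anterior part of a whole litter per genotype, pooled, and sorted as CD45-negative, LYVE1-positive and VECAD-positive. A portion of each sort was lysed at once (before culture), and the rest was grown for 7 days on OP9 stromal cells in medium with 100 ng/ml of each of the cytokines SCF, IL3 and FLT3L, and sorted again for LYVE1 and VECAD (after culture). Each of the 4 groups is thus 1 library from 1 pool, with no replicate, so every fold below compares libraries, every interval is a 95% interval for counting error only, and the p-values given come from a single fit of culture over both genotypes.

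CALCRL reaches the cell surface only in complex with a receptor activity-modifying protein. With RAMP2 or RAMP3 it binds adrenomedullin, and with RAMP1 it forms the receptor for calcitonin gene-related peptide (CGRP). In mice, loss of Adm, Calcrl or Ramp2 causes oedema in the embryo with poorly grown lymph sacs. APLNR binds apelin and the related peptide ELABELA. Apelin is known as a product of endothelial tip cells, and APLNR as a receptor of venous and sprouting endothelium.

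Gene counts totalled 1694669 to 7943587 per library, lowest in the wild type library after culture. The 7 lymphatic markers (Prox1, Lyve1, Flt4, Pdpn, Reln, Mmrn1 and Nrp2) summed to between 6324 and 7590 CPM (counts per 1e6 gene counts, scaled by the trimmed mean of M values, TMM), although Pdpn stood at 0 counts in the wild type library after culture. With culture, 5 of them had fold intervals wholly below 1 in each genotype (Prox1, Pdpn, Reln, Mmrn1 and Nrp2). The other 2, Lyve1 and Flt4, had intervals wholly above 1. Of all measured genes, 27.3% and 27% lay wholly below 1 and 33.9% and 32.4% wholly above, in wild type and mutant. Prox1 stood at 507 and 487 CPM before culture and 207 and 137 CPM after it. Lyve1 stood at 1072 and 890 CPM before culture and 3523 and 2742 CPM after it. The 8 pan-endothelial markers summed to 3767 and 3990 CPM before culture and to 8512 and 7986 CPM after it, in wild type and mutant. Stromal markers (7 genes, among them Col1a1 and Pdgfra) summed to 3117 and 4970 CPM before culture and 1149 and 955 CPM after it, with Lum at 0 counts in the wild type library after culture. Adipocyte markers (5 genes), a type that OP9 cells can form, summed to 80.9 and 68.4 CPM before culture and 841 and 556 CPM after it. Most of the sums after culture came from Fabp4 (394 and 335 CPM) and Lpl (309 and 190 CPM). Adipoq stood at 5.42 and 5.32 CPM before culture and 54.6 and 12.9 CPM after it. In mutant cells the fold interval of Car3 lay wholly below 1, at 7.60 CPM before culture and 3.29 CPM after it. Leukocyte markers (4 genes) lay between 8.0 and 42.7 CPM, with Cd52 and Coro1a at 0 counts in the wild type library after culture. The part of these other cell types in the results below was not tested, and in bulk libraries a smaller number of cells of a type cannot be told apart from less RNA per cell.

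Calcrl, the receptor for adrenomedullin, and its partner Ramp2 were the most abundant of the 7 genes, and both were higher after culture. On GRCm38 Calcrl lies at chr2:84330626-84425411 (minus strand) and Ramp2 at chr11:101246028-101259546 (plus strand), as annotated by GENCODE. Calcrl had 763 counts in the wild type and 1482 in the mutant library before culture, and 778 and 1805 after it. These counts correspond to 153 CPM (142 to 164) in wild type and 161 CPM (153 to 169) in mutant cells before culture, and to 566 CPM (527 to 607) and 540 CPM (515 to 565) after it. The libraries after culture lay above both libraries before culture, and the genotypes overlapped at each stage. Calcrl was 3.70-fold higher after culture in wild type cells (3.34 to 4.09) and 3.36-fold higher in mutant cells (3.13 to 3.6).

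Ramp2, the RAMP that makes the classical adrenomedullin receptor of endothelium, had 576 and 1045 counts before culture and 478 and 824 after it, in wild type and mutant. Its level was 116 CPM (106 to 125) and 113 CPM (107 to 121) before culture, and 348 CPM (317 to 380) and 246 CPM (230 to 264) after it. The wild type library after culture held the highest level and the mutant library after culture the next, with no overlap of their intervals. The fold with culture was 3.01 (2.66 to 3.40) in wild type cells and 2.17 (1.98 to 2.38) in mutant cells.

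**Figure D1:**
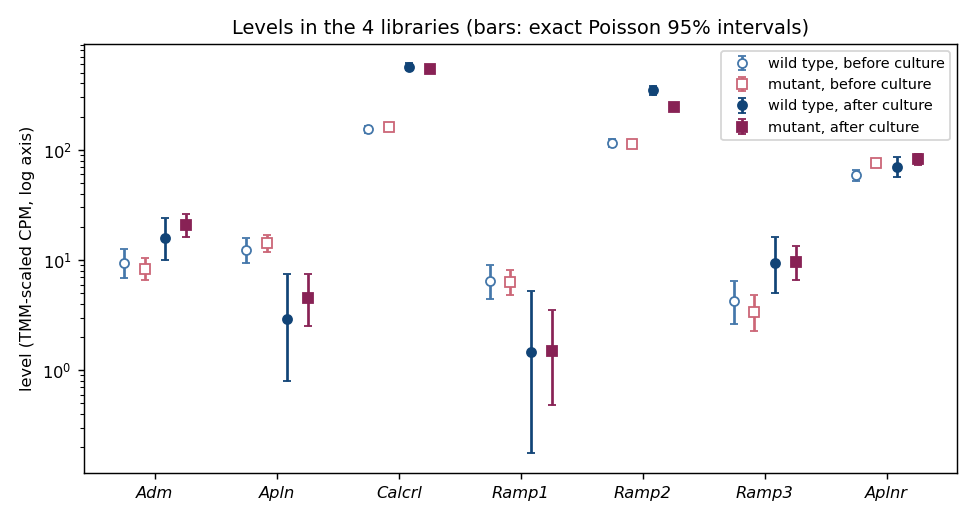
Level of each of the 7 genes (TMM-scaled CPM, log axis) in the 4 libraries; bars are exact Poisson 95% intervals. Calcrl and Ramp2 stand highest after culture, at 246 to 566 CPM, and Apln and Ramp1 lowest, at 1.46 to 4.49 CPM.

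Calls required the entire interval of a fold to exceed a 2-fold difference, and a gene counted as measured if either library of the pair held 20 counts or more. With culture of wild type cells, 2 of the 7 measured members were called higher (Calcrl and Ramp2) and none lower, where 8.17% of all 17154 measured genes were called higher and 5.77% lower (13.9% in all). With culture of mutant cells 1 of 7 was called higher (Calcrl) and none lower, where 5.19% of 18807 genes were called higher and 3.62% lower (8.81% in all). The libraries before and after culture of a genotype come from the same pool, so culture was also fitted over both genotypes with the pool as block (edgeR's quasi-likelihood test, Benjamini-Hochberg adjustment), an alternative added after seeing the data. That fit has 1 residual degree of freedom and takes the culture fold to be equal in both genotypes. At an adjusted p below 0.05 it called 5 members, where 40.8% of 18949 genes were called. Calcrl (3.42-fold, adjusted p = 7.39e-23), Ramp2 (2.48-fold, 6.12e-13) and Adm (2.07-fold, 0.016) were higher, and Apln (0.282, 0.000941) and Ramp1 (0.231, 0.0185) lower. Ramp3 (2.49-fold, 0.0547) and Aplnr (1.1-fold, 0.543) were not called. The fit used counts from which no background was subtracted. Against a background estimated from olfactory and vomeronasal receptor genes (described below), Ramp1 held 1.59 and 2.30 times before culture and 1.23 and 1.03 times after it. Apln held 2.91 and 4.98 times before culture and 2.36 and 2.95 times after it, in wild type and mutant. The part of background in the fitted folds of these genes was not tested. The lower bound for Ramp2 in mutant cells in the pairwise comparison, 1.98, lay just short of the threshold. Without the 2-fold requirement, intervals lay wholly above 1 for 3 members in wild type (Calcrl, Ramp2 and Ramp3; 33.9% of all genes) and for 4 in mutant cells (these and Adm; 32.4%). They lay wholly below 1 for Apln and Ramp1 in each genotype, where the share of all genes was 27.3% in wild type and 27% in mutant cells. The median log2 fold of the members was 0.76 in wild type and 1.12 in mutant cells, beside 0.02 and -0.09 over all measured genes with counts in both libraries. A larger fold than that of Calcrl was seen for 3.42% of measured genes in wild type and 2.50% in mutant cells.

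Summed counts of the 8 pan-endothelial markers were also higher after culture, at 2.26 times (2.21 to 2.31) the level before culture in wild type and 2.0 times (1.97 to 2.03) in mutant cells. Of these, 7 had intervals wholly above 1 in each genotype, where 33.9% and 32.4% of all genes did. The interval of Cldn5 lay wholly below 1 in each, at 167 and 193 CPM before culture and 125 and 112 CPM after it. The 5 capillary and venous markers (Plvap, Cd36, Emcn, Nr2f2 and Ephb4) were higher by more, at 5.53 times (5.32 to 5.76) and 4.30 times (4.18 to 4.42) in summed counts. All 5 were called higher in each genotype, where 8.17% of all genes were called higher in wild type and 5.19% in mutant cells. The part of these markers in the folds of Calcrl and Ramp2 was not tested. Measured within each library against Cdh5, which encodes the sorted cadherin, Calcrl was 1.5 times (1.34 to 1.67) its value before culture in wild type and 1.57 times (1.45 to 1.69) in mutant cells. Ramp2 against Cdh5 was 1.22 times (1.07 to 1.39) and 1.01 times (0.921 to 1.12). When the libraries were scaled on the 8 pan-endothelial genes, which moved all log2 folds by -1.18 in wild type and -1.0 in mutant cells, Calcrl was no longer past 2-fold, at 1.64 and 1.68, and Ramp2 stood at 1.33 and 1.09.

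**Figure D2:**
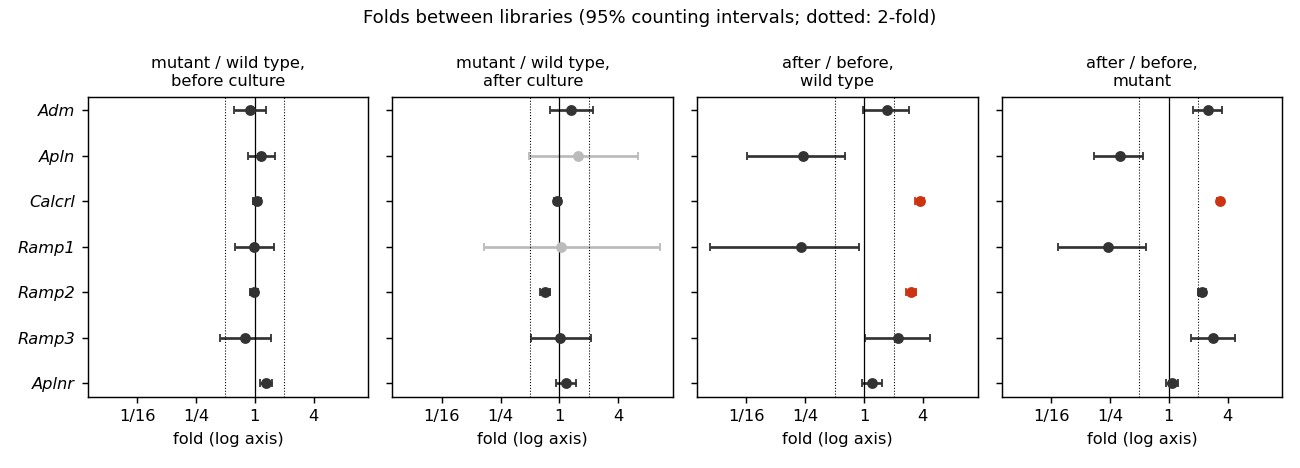
Fold of each gene in the 4 comparisons (log axis) with 95% counting intervals; dotted lines mark 2-fold, red points are called, pale grey points have fewer than 20 counts in both libraries. Between genotypes only Ramp2 after culture (0.709) and Aplnr before it (1.29) have intervals clear of 1, while Adm (1.31) and Apln (1.54) after culture have wide intervals across it, and Calcrl lies at 3.36 to 3.70 with culture.

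Between genotypes, no member was called before culture (7 of 7 measured, where 0.0634% of 18934 genes were called, 0.0158% higher and 0.0475% lower) or after it (5 of 7 measured, Apln and Ramp1 having too few counts, where 0.317% of 12309 genes were called, 0.244% higher and 0.0731% lower). For Calcrl the mutant level divided by the wild type level was 1.05 (0.962 to 1.15) before culture and 0.954 (0.876 to 1.04) after it, and both values crossed 1 under other scalings. For Ramp2 it was 0.981 (0.885 to 1.09) before culture and 0.709 (0.632 to 0.795) after it. Ramp2 was the only member with an interval wholly below 1 after culture, and none lay wholly above 1, where the shares of all genes were 12.3% and 9.48%. A lower fold than that of Ramp2 was seen for 7.69% of genes. The fold of Ramp2 after culture was 0.722 times that before culture (0.620 to 0.841). An interval of this ratio off 1 was found for 32.7% of the 9106 genes with at least 20 counts in every library, whose median ratio was 0.873.

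The lower Ramp2 of the cultured mutant library was also seen against other genes of the same library. Against Calcrl, Ramp2 in the mutant was 0.743 times the wild type value after culture (0.646 to 0.855) and 0.934 times before it (0.817 to 1.07). Against Cdh5 the values were 0.768 (0.682 to 0.866) and 0.924 (0.830 to 1.03). Summed counts of the 7 lymphatic markers stood at 0.841 times (0.822 to 0.861) the wild type level in the same library. Of these, 4 had intervals wholly below 1 (Prox1, Lyve1, Flt4 and Mmrn1) and 3 lay above 1 (Nrp2, Reln and Pdpn), and Prox1, the regulator of lymphatic identity, stood at 0.664 (0.572 to 0.773). Sums of some other markers were also lower there, at 0.938 times for pan-endothelial, 0.853 times for capillary and venous, 0.831 times for stromal, 0.661 times for adipocyte and 0.618 times for mast cell markers. Of the 4 mast cell markers, 3 lay wholly below 1 (Cpa3, Cma1 and Mcpt4) and Kit wholly above it. Leukocyte markers summed to 2.13 times (1.11 to 4.50), on 57 against 11 counts, and smooth muscle and pericyte markers to 1.10 times (0.953 to 1.26). The part of these marker groups in the level of Ramp2 was not tested. An alternative transcript of Ramp2 in the GENCODE annotation runs on the same strand into Vps25, a gene of endosomal sorting, and shares 1103 exon bases with it. Vps25 in the mutant stood at 1.81 times (1.43 to 2.30) the wild type level before culture and 0.997 times (0.755 to 1.33) after it, so its genotype ratio, like that of Ramp2, was lower after culture, and with culture its folds were 2.82 (2.04 to 3.86) in wild type and 1.55 (1.28 to 1.87) in mutant cells. Its part in the counts of Ramp2 was not tested.

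Ramp2 supplied nearly all RAMP RNA in every library. It held 91.6% of the counts of the 3 RAMP genes in the wild type library before culture (exact binomial interval 89.1% to 93.6%) and 92.2% in the mutant library (90.4% to 93.7%). After culture it held 97.0% (95% to 98.3%) and 95.7% (94.1% to 97.0%). Per kb of exon, which is the scale for comparing genes, the share of Ramp2 in the summed RAMP level was 87.1% and 88.4% before culture and 93.5% and 90.9% after it. Because the exon length of Ramp2, 3301 bases, includes the transcript that runs into Vps25, its level per kb is understated. With the longest single transcript of each gene as length, 1478 bases for Ramp2, the shares were 93.0%, 93.6%, 96.8% and 95.5% in the same order.

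Ramp3 (chr11:6658521-6677475, plus strand), the other RAMP that forms an adrenomedullin receptor, had 21 and 31 counts before culture and 13 and 32 after it, in wild type and mutant. Its level was 4.21 CPM (2.61 to 6.44) and 3.36 CPM (2.29 to 4.78) before culture and 9.46 CPM (5.04 to 16.2) and 9.57 CPM (6.55 to 13.5) after it. The wild type intervals overlapped, while the mutant intervals did not. The fold with culture was 2.24 (1.03 to 4.70) in wild type and 2.84 (1.68 to 4.82) in mutant cells, neither of them called, and the wild type value was 0.993 when the libraries were scaled on pan-endothelial genes. Ramp3 held 2.29 and 2.69 times its expected background before culture and 17.5 and 14.4 times after it. With background subtracted the mutant fold was 4.21 (2.15 to 8.25) and past the threshold, but it was not called with rescaling. In wild type too few counts remained for a call. Ramp3 shares 101 exon bases with the antisense pseudogene Gm11978.

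Ramp1 (chr1:91179822-91225196, plus strand), the partner that makes the CGRP receptor, had 32 and 58 counts before culture and only 2 and 5 after it. Its level was 6.42 CPM and 6.30 CPM before culture and 1.46 CPM (0.176 to 5.26) and 1.5 CPM (0.485 to 3.49) after it. These counts lay near the background of the libraries, which was estimated from 1429 olfactory and vomeronasal receptor genes, known for expression in sensory neurons. That background came to 6.65 and 8.35 counts per kb before culture and 0.538 and 1.61 counts per kb after it. Ramp1 held 1.59 and 2.30 times its expected background before culture and 1.23 and 1.03 times after it. The fold of Ramp1 with culture was 0.227 (0.0263 to 0.888) in wild type and 0.238 (0.0743 to 0.587) in mutant cells, neither of them called. After subtraction of the background, 0.374 and 0.125 counts remained after culture, below the floor of 3 counts, so no fold is given on that scale.

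**Figure D3:**
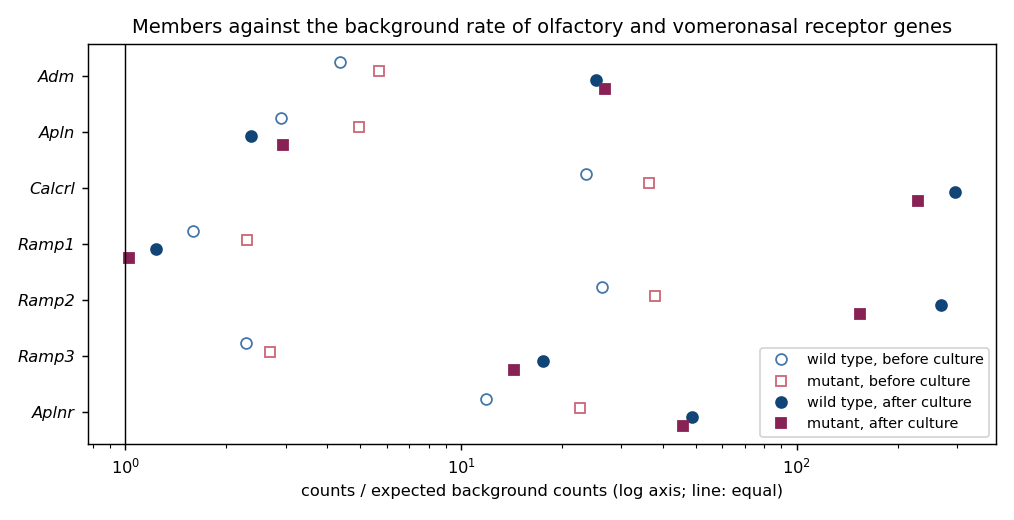
Counts of each gene divided by the counts expected from background in the same library (log axis; the line marks equality). Calcrl and Ramp2 stand at least 23.5 times above background in each library, whereas Ramp1 lies at 1.03 to 2.30 times.

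The ratio of receptor to partner was highest in the mutant library after culture. Per kb of exon, the ratio of Calcrl to Ramp2 was 0.896 (0.803 to 0.9997) and 0.959 (0.885 to 1.04) before culture, and 1.10 (0.981 to 1.24) and 1.48 (1.36 to 1.61) after it, in wild type and mutant. With the longest transcript as length these ratios were 0.401, 0.429, 0.493 and 0.663, all below 1. Whether Calcrl or Ramp2 RNA was the more abundant therefore depended on the length. In the change with culture the length cancels, as it is the same in every library. Against Calcrl, Ramp2 after culture was 0.814 times its value before culture in wild type (0.696 to 0.952) and 0.647 times in mutant cells (0.578 to 0.726).

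**Figure D4:**
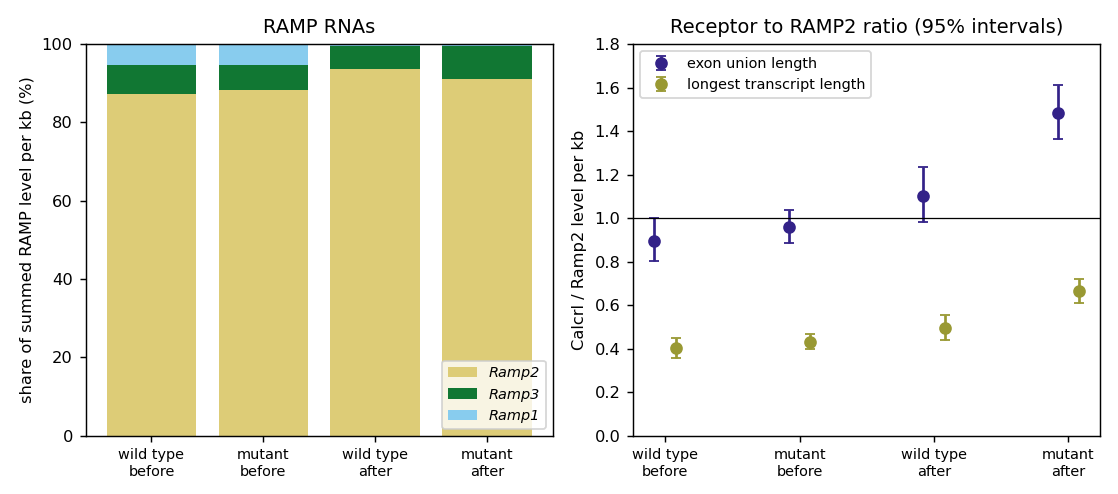
Left, share of each RAMP gene in the summed RAMP level per kb of exon in each library; right, ratio of Calcrl to Ramp2 per kb with 95% intervals, for both definitions of length. Ramp2 makes up 87.1% to 93.5% of the RAMP level, and the ratio is highest in the mutant library after culture, at 1.48 per kb of exon.

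Both ligands are textbook targets of hypoxia, and their folds with culture lay on opposite sides of 1, although for Adm in wild type cells the interval included 1 and the direction turned on the pan-endothelial scale. The sequences around their starts are shown for this reason, and that of Calcrl because it was called higher with culture in both genotypes. The RefSeq windows (GRCm38.p6, 250 bases before to 50 after the start) lie at chr7:110627407-110627706 on the plus strand for Adm, chrX:48034804-48035103 on the minus strand for Apln and chr2:84425217-84425516 on the minus strand for Calcrl. Capitals mark matches to GCGTG, read as CACGC on the other strand.
Adm: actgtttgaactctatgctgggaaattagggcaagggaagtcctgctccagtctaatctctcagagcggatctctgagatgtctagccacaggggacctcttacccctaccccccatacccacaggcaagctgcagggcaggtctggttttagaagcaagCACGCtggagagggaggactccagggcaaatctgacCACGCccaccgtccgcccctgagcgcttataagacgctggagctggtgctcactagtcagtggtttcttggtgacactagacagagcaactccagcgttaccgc
Apln: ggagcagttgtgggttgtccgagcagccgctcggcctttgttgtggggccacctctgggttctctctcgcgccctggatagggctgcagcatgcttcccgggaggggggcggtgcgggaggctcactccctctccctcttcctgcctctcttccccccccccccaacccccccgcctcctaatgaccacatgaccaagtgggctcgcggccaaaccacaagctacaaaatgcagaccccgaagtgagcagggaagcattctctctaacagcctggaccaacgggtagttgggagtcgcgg
Calcrl: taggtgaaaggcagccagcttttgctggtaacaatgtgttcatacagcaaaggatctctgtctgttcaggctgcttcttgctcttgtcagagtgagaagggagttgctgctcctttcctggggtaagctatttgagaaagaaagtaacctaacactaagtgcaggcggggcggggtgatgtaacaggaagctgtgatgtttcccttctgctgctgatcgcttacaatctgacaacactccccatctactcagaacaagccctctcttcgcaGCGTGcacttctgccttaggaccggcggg
The core of the hypoxia response element was searched as ACGTG and GCGTG on both strands. The Adm window held GCGTG 90 and 54 bases upstream of the start, the Apln window held neither form, and the Calcrl window held GCGTG 21 bases after the start. The Ramp3 window held GCGTG 219 and 65 bases upstream, and the Ramp1 window held neither form. GCGTG occurs in 32.4% of 32851 RefSeq windows of this length, and either core in 43.8%. Windows were matched for 5 of the 7 members (not Ramp2 or Aplnr), and none of the 5 held the GATA motifs AGATAA or TGATAA, either of which occurs in 18.6% of all windows. Such matches are a description of letters and not of binding.

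Adm (chr7:110627661-110629820, plus strand), which encodes adrenomedullin, had 47 and 77 counts before culture and 22 and 70 after it, in wild type and mutant. Its level was 9.43 CPM (6.93 to 12.5) and 8.36 CPM (6.60 to 10.4) before culture and 16 CPM (10.03 to 24.2) and 20.9 CPM (16.3 to 26.4) after it. Both libraries after culture had higher levels than both before, although the wild type intervals overlapped. The fold with culture was 2.50 (1.79 to 3.51) in mutant cells, and in wild type cells it was 1.70 (0.974 to 2.87), which turned to 0.751 when the libraries were scaled on pan-endothelial genes. Neither was called. The mutant fold was 2.92 (2.03 to 4.21) and past the threshold with background subtracted, but 2.45 (1.70 to 3.52) with background subtracted and rescaled, and 1.25 (0.892 to 1.75) on the pan-endothelial scale.

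Apln (chrX:48025146-48034853, minus strand), which encodes apelin, had lower levels in the libraries after culture. It had 61 and 131 counts before culture and 4 and 15 after it, or 12.2 CPM (9.36 to 15.7) and 14.2 CPM (11.9 to 16.9) before and 2.91 CPM (0.793 to 7.45) and 4.49 CPM (2.51 to 7.40) after. Both libraries after culture lay below both libraries before culture, with no overlap of intervals. Its level after culture was 4.21-fold lower in wild type (1.56 to 15.9), and the mutant level was 3.17-fold lower (1.85 to 5.83), neither of them called. Apln stood at 2.91 and 4.98 times background before culture and 2.36 and 2.95 times after it, and with background subtracted the mutant fold was 0.261 (0.118 to 0.578). In wild type only 2.31 counts remained after subtraction, below the floor. The mutant to wild type fold before culture was 1.16 (0.851 to 1.60). Xist, whose level depends on the sex of the pooled embryos, was 372 CPM in wild type and 844 CPM in mutant cells before culture and 495 and 1651 CPM after it, and its part in the level of this X-linked gene was not tested.

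Aplnr (chr2:85136225-85139923, plus strand), the apelin receptor, was the third most abundant member per kb in all 4 libraries. It had 292 and 699 counts before culture and 97 and 274 after it, or 58.6 CPM (52.1 to 65.7) and 75.9 CPM (70.3 to 81.7) before and 70.6 CPM (57.2 to 86.1) and 81.9 CPM (72.5 to 92.2) after. The mutant library had the higher level at both stages, with intervals that overlapped only after culture. Its mutant to wild type fold was 1.29 (1.13 to 1.49) before culture, the only member with an interval off 1 in that comparison, where 17.6% of all measured genes lay wholly above 1 and 8.54% wholly below, and 1.16 (0.918 to 1.48) after it. Stromal markers were higher in the same mutant library, at 1.59 times (1.57 to 1.62) the wild type level in summed counts, and their part in the fold of Aplnr was not tested. Against Cdh5 the fold of Aplnr before culture was 1.22 (1.06 to 1.40).

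With culture the fold of Aplnr was 1.20 (0.947 to 1.52) in wild type and 1.08 (0.936 to 1.24) in mutant cells, but the direction turned under other scalings, to 0.533 and 0.540 when scaled on pan-endothelial genes to 0.782 and 0.792 with library totals, and to 0.918 and 0.925 with background subtracted and rescaled. Against Cdh5, Aplnr was 0.488 times (0.386 to 0.616) its value before culture in wild type and 0.504 times (0.437 to 0.581) in mutant cells. Within libraries, Aplnr against Calcrl was 0.326 times (0.254 to 0.419) its value before culture in wild type and 0.322 times (0.275 to 0.376) in mutant cells. Per kb, Calcrl was 1.98 and 1.61 times as abundant as Aplnr before culture and 6.08 and 4.99 times as abundant after it.

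Ordered by level per kb of exon, the receptors Calcrl, Ramp2 and Aplnr stood above the ligands and the other RAMP genes in each library. Ramp2 came just above Calcrl before culture, at 35.0 against 31.4 CPM per kb in wild type and 34.4 against 32.9 in mutant cells, and Calcrl came first after it, at 116 against 105 and 111 against 74.6. The pair did not differ beyond counting error in the mutant library before culture or the wild type library after it. Adm came next in each library. It did not differ beyond counting error from Apln in the mutant library before culture or from Ramp3 in the wild type library after it. Ramp1 came last, at 2.13 and 2.08 CPM per kb before culture and 0.481 and 0.495 after it, and did not differ beyond counting error from its neighbour in the order, which was Ramp3 before culture and Apln after it. With the longest transcript as length, Ramp2 instead came first in each library, beyond counting error. It stood at 78.2 against 31.4 CPM per kb for Calcrl in wild type and 76.7 against 32.9 in mutant cells before culture. After culture these values were 235 against 116 and 167 against 111. On that length Ramp3 was last in the mutant library before culture, at 2.52 against 2.71 CPM per kb for Ramp1. Calcrl ranked 797 and 906 among 22845 genes by level per kb of exon before culture and 282 and 263 after it.

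Genes with the most similar profile were sought among 13333 genes as the smallest distance between levels in the 4 libraries on the log2 scale, each centred on its own mean. Nearest to Calcrl were Tex2, Osgin1 and Heatr7a, at distances of 0.016 to 0.068, and nearest to Ramp2 were Dapk1, Armcx3 and Me1, at 0.025 to 0.073. Nearest to Adm were C3, Bcl2l2 and Gimap1, at 0.072 to 0.097, and nearest to Apln were Cadm3, Plekhg3 and Epha4, at 0.047 to 0.11. Nearest to Ramp3 were Mysm1, Ghdc and Plek, at 0.037 to 0.070, and nearest to Ramp1 were Fry, Serpina6 and Zdhhc15, at 0.013 to 0.072. With only 4 libraries, each such likeness rests on few points. Aplnr varied by less than 2-fold and was not compared.

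Of 50 related genes in 6 lists, none was called between genotypes, with 49 measured before culture and 41 after it. Over all genes the shares called were only 0.0634% before culture and 0.317% after it. With culture, 14 of 47 measured were called higher and 4 lower in wild type, and 11 of 48 higher and 3 lower in mutant cells. Over all genes the shares were 8.17% and 5.77% in wild type and 5.19% and 3.62% in mutant cells. This split rested on the scaling: with library totals 8 were called higher and 8 lower in wild type and 6 and 7 in mutant cells, and with scaling on pan-endothelial genes 1 higher and 12 lower, and 3 and 12. With background subtracted and rescaled the split was 10 and 4 in wild type and 8 and 5 in mutant cells. Median log2 folds of the listed genes were 0.69 and 0.51, beside -0.05 and -0.10 over all genes, with 0 counts set to the floor of 3.

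Among relatives of the receptor (Calcr, Crcp, Gpr182 and Ackr3), Gpr182 had the highest fold with culture. GPR182, once proposed as an adrenomedullin receptor and now known as a scavenger of chemokines on lymphatic and sinusoidal endothelium, had 91 and 149 counts before culture and 570 and 1386 after it. The levels were 18.3 and 16.2 CPM before culture and 415 and 414 CPM after it, so both libraries after culture lay far above both before it. It was 22.7-fold higher in wild type (18.2 to 28.7) and 25.6-fold higher in mutant cells (21.6 to 30.6), with a larger fold in only 21 and 12 of all measured genes. Before culture it stood at 3.46 and 4.51 times background, and with background subtracted the folds were 31.8 and 32.8. On the pan-endothelial scale it was still past the threshold in both genotypes, at 10.05-fold (8.04 to 12.7) and 12.8-fold (10.8 to 15.3). Crcp, a component of CGRP receptor signalling, was at 17.3 and 17.9 CPM before culture and 22.6 and 21.2 CPM after it. Ackr3, a decoy receptor that takes up adrenomedullin, deposited as Cxcr7 and named here after its values were seen, was at 13.0 and 18.2 CPM before culture and 13.8 and 10.5 CPM after it.

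Other ligands of these receptors (Adm2, Calca, Calcb, Iapp and Apela, the last deposited as Gm10664) were sparse, with summed counts of 118 and 159 before culture and 16 and 43 after it. None was called in any of the 4 comparisons, in which 4, 1, 3 and 3 of the 5 had enough counts (mutant against wild type before and after culture, then culture in wild type and mutant). Over all genes the shares called were 0.0634%, 0.317%, 13.9% and 8.81% in the same order. Calca, which encodes calcitonin and CGRP, was at 8.23 and 9.12 CPM before culture and 7.28 and 8.07 CPM after it. Adm2, a relative of adrenomedullin, had 20 and 25 counts before culture and 3 and 4 after it.

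Of 5 genes for processing and breakdown of peptides (Pam, Furin, Mme, Ece1 and Cpe), 3 were called higher with culture in each genotype and none lower. Over all genes 8.17% were called higher and 5.77% lower in wild type, and 5.19% and 3.62% in mutant cells. With scaling on pan-endothelial genes the split was 0 higher and 1 lower in wild type and 1 and 1 in mutant cells. Ece1, an endothelin-converting protease, had folds of 3.15 (2.98 to 3.33) in wild type and 2.22 (2.13 to 2.31) in mutant cells. Furin, a protease that cleaves peptide precursors, had folds of 3.83 (3.35 to 4.39) and 2.50 (2.28 to 2.74). Mme, which encodes neprilysin, a protease that degrades peptides, had folds of 4.36 (3.44 to 5.53) and 5.28 (4.57 to 6.10), or 9.90 and 7.59 with background subtracted. On the pan-endothelial scale these 3 genes stood at 1.39, 1.70 and 1.93 in wild type and 1.11, 1.25 and 2.64 in mutant cells. After culture Ece1 and Pam, the enzyme that amidates adrenomedullin, had mutant to wild type folds of 0.761 (0.723 to 0.801) and 0.766 (0.681 to 0.863), neither called.

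Among 16 genes of signal transduction, 7 were called higher and 2 lower with culture in wild type, and 5 higher and 1 lower in mutant cells, beside the shares over all genes of 8.17% and 5.77% in wild type and 5.19% and 3.62% in mutant cells. With library totals the split was 3 and 3 in each genotype, with background subtracted and rescaled 4 and 2 and then 3 and 1, and on the pan-endothelial scale 0 and 3 and then 1 and 3. Nos3, the endothelial nitric oxide synthase, had folds of 5.11 (4.33 to 6.03) and 3.42 (3.08 to 3.8), and 2.26 and 1.71 on the pan-endothelial scale. Gnai2, an inhibitory G protein subunit, had a fold of 2.50 (2.32 to 2.69) in wild type, and the adenylyl cyclase Adcy4 one of 2.43 (2.17 to 2.73) in mutant cells, and these were 1.11 and 1.21 on that scale. Each was also higher after culture in the other genotype. Gnai2 stood at 462 CPM before and 882 CPM after culture in mutant cells, and Adcy4 at 64.0 and 203 CPM in wild type. Gnas, the stimulatory G protein that couples CALCRL to cyclic AMP, was 3.21-fold lower in wild type (3.03 to 3.40), and the mutant value was 3.46-fold lower (3.33 to 3.59). Gnas shares 988 exon bases with the antisense gene Nespas and Nos3 shares 1040 with the antisense gene Gm15587, and the strand setting of the counting is not given in the sources used here.

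Of 10 hypoxia genes, 1 was called higher and 1 lower with culture in wild type, and none in mutant cells. Over all genes the shares were 8.17% and 5.77% in wild type and 5.19% and 3.62% in mutant cells. With scaling on pan-endothelial genes 0 hypoxia genes were called higher and 3 lower in each genotype. Pgk1, a glycolytic kinase, was the one called higher, at 2.61 (2.14 to 3.17), or 1.16 on the pan-endothelial scale. Car9, a carbonic anhydrase, had 34 counts before culture and 0 after it in wild type, at least 3.13-fold lower when the empty library is given the floor of 3 counts, and was not called with background subtracted. In mutant cells it had 44 and 18 counts, or 4.78 CPM before culture and 5.38 CPM after it. Before culture it stood at 2.22 times background in wild type and 2.29 times in mutant cells. Of the 10 tip cell genes, 9 were measured in wild type cells, with 2 called higher and 1 lower, and all 10 in mutant cells, with 2 called higher and 2 lower, beside the same shares over all genes. With scaling on pan-endothelial genes the split was 0 higher and 3 lower in wild type and 0 and 4 in mutant cells. The Notch ligand Dll4 had folds of 4.07 (3.49 to 4.73) and 3.61 (3.25 to 4.01), and Igfbp3, which binds insulin-like growth factors, 4.25 (3.68 to 4.92) and 2.84 (2.57 to 3.15). On the pan-endothelial scale Dll4 stood at 1.8 in each genotype, and Igfbp3 at 1.88 and 1.42. Pgf, placental growth factor, was 14.1-fold lower in wild type (6.41 to 38.8), and the mutant value was 10.7-fold lower (6.93 to 17.4), on 307 and 618 counts before culture and 6 and 21 after it.

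**Figure D5:**
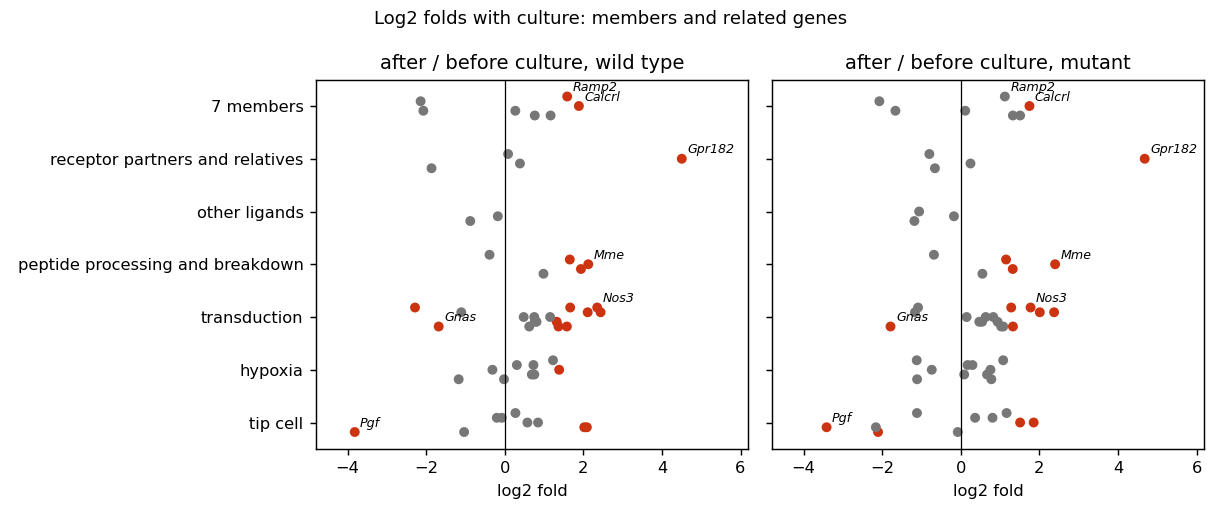
Log2 fold after against before culture for the 7 members and for the measured genes of the 6 related lists, in wild type and mutant cells; red points are called, and genes with 0 counts in a library are not drawn. Gpr182 lies farthest to the right, at 22.7-fold and 25.6-fold, and Pgf farthest to the left, at 14.1-fold and 10.7-fold lower.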

How the data were processed

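The labels' protocols give a stranded total RNA kit and paired reads of 75 nt. Counts of read pairs per gene symbol were used as deposited, unnormalized. The submitters' processing notes name bcl2fastq, STAR, HTSeq 0.11.2 and mm10, and the names of the count tables state removal of duplicates. Neither the annotation nor the strand setting is given in the sources used here. The 5 summary classes of HTSeq were left out of totals. Before culture, HTSeq placed 66.5% of the wild type pairs and 53.6% of the mutant pairs in its class for pairs without a counted feature. After culture these shares were 19.996% and 30.3%. Pairs not aligned were 21.4% and 34.1% before culture and 67.6% and 56.2% after it, and pairs counted for a gene 7.94% and 8.79% before and 9.94% and 10.5% after.

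Counts were scaled with TMM factors (edgeR 4.0.16, R 4.3.3). Intervals are exact Poisson for levels, Clopper-Pearson on the share of counts for folds and log-normal for ratios of ratios, at 95%. Read pairs carry no molecular identifiers, so intervals cover counting error only. A floor of 3 counts replaced 0 in bounds. With 1 library per group the pairwise comparisons have no test; culture was also fitted over all 4 libraries with edgeR's quasi-likelihood test, with the pool of each genotype as block, since the labels say that each sort was divided before culture. Exon lengths came from GENCODE vM21 (GRCm38, the same assembly as mm10) for 22845 symbols (97.9%), and older symbols were matched through RefSeq synonyms. Background was the count rate over coding bases of olfactory and vomeronasal receptor genes, multiplied by exon length. Intervals after background subtraction are log-normal. The procedure was tested on simulated data.

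The members and lists were chosen with earlier results of these data known. One listed gene is not reported here. Named genes are all 7 members and, of each list, at most 3 called genes, taken by total count, or 2 genes in the absence of calls. Alternatives were DESeq2 1.42.0 size factors, library totals, background subtraction with and without rescaling, no count filter, a 1.5-fold threshold, scaling on 8 pan-endothelial genes and other lengths; the scaling on endothelial genes, the subtraction without rescaling and the fit with the pool as block were chosen after seeing the data.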

Additional observations from a re-analysis of the deposited data

How the results depend on the processing

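No member was called between genotypes under any of the 7 alternatives, where at most 0.628% of all measured genes were called before culture and 1.19% after it. With culture of wild type cells 2 members were called, and 1 with background subtracted and rescaled (Calcrl alone). The count was still 2 with library totals (Calcrl higher, Apln lower) and with scaling on pan-endothelial genes (Apln and Ramp1 lower, none higher), and it was 3 at a 1.5-fold threshold. Of all measured genes, 11.3% were called with background subtracted and rescaled, and 20.4% with library totals. The share was 34.7% with scaling on pan-endothelial genes and 29.4% at a 1.5-fold threshold. With culture of mutant cells 1 member was called, against 2 with DESeq2 size factors (Calcrl and Ramp2 higher), 3 with library totals (Calcrl higher, Apln and Ramp1 lower), 2 with background subtracted and rescaled (Calcrl higher, Apln lower), 6 at a 1.5-fold threshold, 4 with background subtracted and TMM factors kept (Adm, Calcrl, Ramp2 and Ramp3 higher) and 2 with scaling on pan-endothelial genes (Apln and Ramp1 lower). The shares of all measured genes called under these 6 settings, in the same order, were 8.96%, 12.5%, 9.65%, 21.1%, 11.2% and 28.3%. Library totals moved all log2 folds with culture by -0.62 in wild type and -0.45 in mutant cells, and background subtraction with rescaling by -0.49 and -0.26. Between genotypes before culture these settings moved them by -0.11 and -0.21, so that Calcrl stood at 0.923 and Ramp2 at 0.859 with background subtracted and rescaled. All 28 folds stayed inside their intervals with DESeq2 size factors. Only Calcrl (1 member) was called with culture in both genotypes by the 2-fold rule on intervals. The additive edgeR fit with the pool as block, which sets no fold threshold, called 5 members. Its 2 pools are the 2 genotypes and not replicates, so its 1 residual degree of freedom holds the difference in culture fold between genotypes. That gives a weak estimate of spread. For Ramp2 the ratio of genotype folds after and before culture was 0.722 (0.620 to 0.841), against the equal folds that the fit takes. The pairing comes from the division of each sort before culture. The depth of the wild type library after culture limits what can be said of Apln, Ramp1 and Ramp3, which had 4, 2 and 13 counts there.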
